A study of Kryptolebias marmoratus with 5 samples.

Results

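The genes *noto*, *tbxta* and *tbxtb* encode transcription factors of the notochord and of the tail bud. They were found by their RefSeq symbols, and the reads of all coding sequences of a gene were added together. They are 3 of the 22090 genes to which coding sequences of the mangrove killifish *Kryptolebias marmoratus* could be assigned. All 3 were above the minimum used below, a mean of 2 CPM over the libraries, which 15363 genes reached. RNA was sequenced from pools of whole embryos, with 1 library for each of 5 groups. WT is the self-fertilizing *Hon9* strain. The *stl* (shorttail) and *btl* (balltail) libraries hold homozygous mutants of recessive lines made from that strain with the mutagen N-ethyl-N-nitrosourea. The *stl*-sibling and *btl*-sibling libraries hold the embryos of the same lines with a normal tail, which can include carriers of the mutation. The study places a missense allele of *noto* in *stl* and a missense allele of *msgn1*, a regulator of the paraxial mesoderm, in *btl*. The labels give each pool as 20 to 25 embryos of St.17 that may include St.16 and St.18, and the text of the study also names a later stage in one place.

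The notochord is the rod of cells that stiffens the early embryo and patterns the neural tube and the somites on either side of it. In the growing tail it is laid down from the tail bud, a pool of progenitors that also supplies the somites. *noto* encodes a homeodomain factor that, in zebrafish (*floating head*), keeps midline cells on the notochord path. *tbxta* encodes the T-box factor Brachyury (*no tail* or *ntl* in zebrafish), which is needed for notochord differentiation and for the mesodermal progenitors of the tail bud. *tbxtb* is the other Brachyury gene of teleost fish, and in zebrafish it shares part of its work with *tbxta*.

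The estimated reads of the libraries summed to between 9147625 in *btl* and 12220249 in *btl*-sibling. With 1 library in each group no difference has a replicate check, and no p-value is given. A level is given in reads and in CPM, which is reads relative to the library total after scaling with edgeR's TMM factors. The interval given beside a level is the exact Poisson 95% interval, and for a ratio of libraries it is the 95% interval from the exact binomial (Clopper-Pearson) method, applied to their reads. Both cover counting error only, and a ratio compares a pair of libraries rather than the conditions. A log2 fold change is taken after adding 0.5 CPM to both values, whereas the intervals hold no such addition. In these pools, fewer cells of a type and less RNA in each cell cannot be told apart. Whole-embryo markers were read in every library, with summed levels of the notochord sheath list of 2763 to 3366 CPM in the 3 normal libraries (WT, *stl*-sibling and *btl*-sibling), 2031 CPM in *stl* and 1588 CPM in *btl*. Genes that are not particular to the notochord, named below, make up most of these sums in *stl* and *btl*. The laminin gene *lamb1a* alone held 545 CPM in WT, 547 CPM in *stl* and 306 CPM in *btl*. The collagen gene *col2a1a* held 235 CPM in WT, 48.9 CPM in *stl* and 47.9 CPM in *btl*. The sums therefore give neither the size of the difference in notochord genes nor the order of the mutants for them.

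*noto* (gene 108246077) lies on linkage group 10 of the assembly ASM164957v2, from 1128214 to 1129624. It was read 93 times in WT, 92 times in *stl*-sibling, 92 times in *btl*-sibling, 44 times in *stl* and 134 times in *btl*. In CPM, WT stood at 8.01 (6.46 to 9.81), *stl*-sibling at 7.56 (6.09 to 9.27), *btl*-sibling at 7.14 (5.75 to 8.75), *stl* at 3.71 (2.70 to 4.98) and *btl* at 16.1 (13.5 to 19.1). The 3 normal libraries overlapped in their intervals, *stl* lay below all of them and *btl* above all of them. Reads of either allele were counted alike, so the count of *noto* is no check of the label of *stl*.

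*tbxta* (gene 108248927) lies on linkage group 5, from 22195754 to 22198644, and has a single coding sequence of 1269 nucleotides. Its reads numbered 251 in WT, 269 in *stl*-sibling, 309 in *btl*-sibling, 80 in *stl* and 572 in *btl*. The levels were 21.6 CPM in WT (19.0 to 24.5), 22.1 in *stl*-sibling (19.5 to 24.9), 24.0 in *btl*-sibling (21.4 to 26.8), 6.75 in *stl* (5.35 to 8.40) and 68.7 in *btl* (63.2 to 74.6). The order was that of *noto*, with the normal libraries together, *stl* below and *btl* above. The distances were wider, however, and *btl* stood 10.2-fold above *stl* for *tbxta* against 4.34-fold for *noto*.

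*tbxtb* (gene 108234009) lies on linkage group 22, from 24235402 to 24239141, with a single coding sequence of 1320 nucleotides. It was read 119 times in WT, 118 times in *stl*-sibling, 170 times in *btl*-sibling, 111 times in *stl* and 471 times in *btl*. These are 10.2 CPM in WT (8.49 to 12.3), 9.69 in *stl*-sibling (8.02 to 11.6), 13.2 in *btl*-sibling (11.3 to 15.3), 9.36 in *stl* (7.70 to 11.3) and 56.6 in *btl* (51.6 to 61.9). The *stl* library was the lowest of the 5, at 0.97 of the lowest normal library, and its interval overlapped those of WT and *stl*-sibling but did not reach that of *btl*-sibling. Only *btl* lay apart from all 3 normal libraries. Among the normal libraries *tbxtb* also varied the most, with the highest of the 3 at 1.36-fold the lowest, against 1.12-fold for *noto* and 1.11-fold for *tbxta*.

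**Figure D1:**
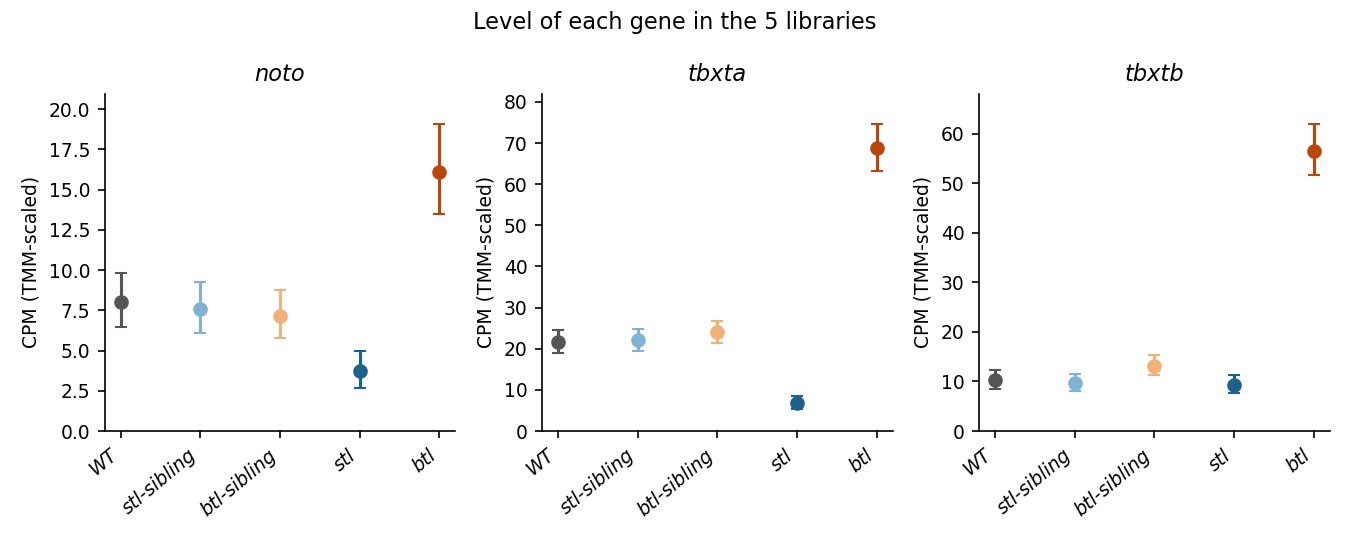
Level of *noto*, *tbxta* and *tbxtb* in CPM (vertical axes, each starting at 0) in the 5 libraries (horizontal axes), with exact Poisson 95% intervals as bars. For *noto* and *tbxta* the *stl* point lies below the 3 normal libraries and *btl* above them, whereas for *tbxtb*, at 9.36 CPM in *stl* and 56.6 CPM in *btl*, the *btl* library alone lies apart from all 3 normal libraries.

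The library of each mutant was set against the library of its own siblings. In *stl* against *stl*-sibling, *tbxta* was 3.27-fold lower, a log2 fold change of -1.64 (interval -2.09 to -1.35). For *noto* the value in *stl* was 2.04-fold lower in the ratio of reads, and its log2 fold change, at -0.94 (interval -1.58 to -0.49), was just short of a 2-fold difference once 0.5 CPM was added, and past it with 0.1 CPM (-1.01) or none (-1.03). *tbxtb* had a log2 fold change of -0.05, with an interval from -0.44 to 0.34 that holds 0 and leaves out a 2-fold difference in either direction. Thus 1 of the 3 genes was at least 2-fold lower. Over all 15363 genes, 0.996% lay past 2-fold on the lower side in this comparison and 0.215% on the higher side, 1.21% in all.

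In *btl* against *btl*-sibling all 3 genes were at least 2-fold higher. The log2 fold change was 2.06 for *tbxtb* (interval 1.84 to 2.36), 1.5 for *tbxta* (interval 1.32 to 1.72) and 1.12 for *noto* (interval 0.78 to 1.57). Past 2-fold on the higher side were 4.45% of all genes, and on the lower side 3.23%, which are 683 and 496 genes and 7.67% in all. That split depends on the scaling, with 318 higher and 848 lower by library size alone and 75 higher and 2031 lower with TPM. Ranked from the highest fold change, *tbxtb* was in place 19, *tbxta* in place 89 and *noto* in place 446 of the 15363 genes. The 2-fold call of *noto* ended under 5 of 11 alternatives, with WT as the reference (0.96), by library size alone (0.92), with TPM (0.53), with 2 CPM added (0.99) and after the trend over coding sequence length was taken out (0.87). That of *tbxta* ended with TPM (0.91). By *in situ* hybridization at a later stage, the study saw *noto* suppressed in *stl* and enhanced in *btl*. It found *ntl* not significantly altered in either mutant, unlike the read counts of *tbxta* here. Staining is another measure than read counts, and the study does not state which Brachyury gene its *ntl* probe matched.

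**Figure D2:**
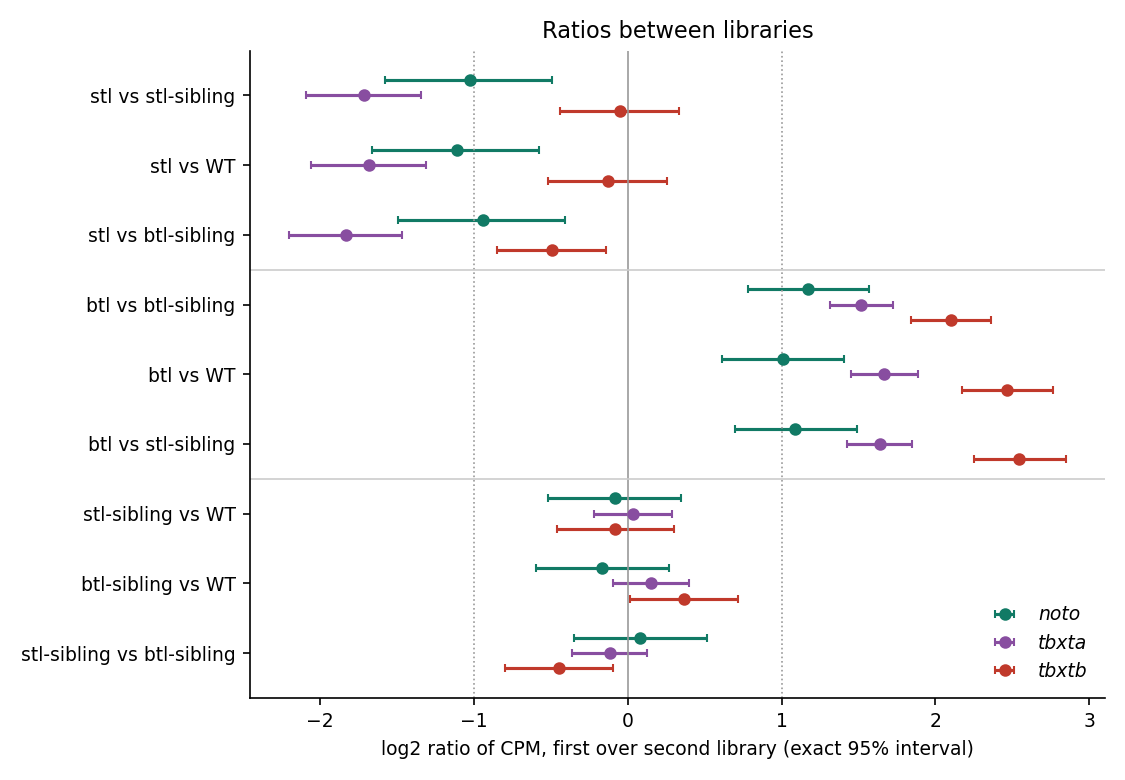
Log2 ratio of CPM, the first library named over the second (horizontal axis), for *noto*, *tbxta* and *tbxtb* in 9 pairs of libraries (vertical axis), with exact 95% intervals of the read ratio as bars and dotted lines at 2-fold. Ratios with *stl* are below 0 and ratios with *btl* above 0 for all 3 genes. For *tbxtb* in *stl* the interval holds 0 against *stl*-sibling and WT and leaves it out against *btl*-sibling. The bottom block shows the normal libraries against each other.

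Against WT, the parent strain of both lines, *tbxta* was at -1.61 on the log2 scale in *stl* (interval -2.06 to -1.31) and at 1.65 in *btl* (interval 1.45 to 1.89). For *noto* these were -1.01 (interval -1.66 to -0.58) and 0.96 (interval 0.61 to 1.40), and for *tbxtb* -0.12 (interval -0.52 to 0.26) and 2.41 (interval 2.17 to 2.77). Of all genes, 1.49% were past 2-fold on the lower side in *stl* against WT, and 1.86% on the higher side in *btl* against WT. The comparisons with WT share the WT library, so the values are given side by side and not as independent of each other. Between normal libraries the largest log2 fold change was 0.16 in size for *noto*, from -0.16 in *btl*-sibling against WT, and 0.15 for *tbxta* in the same pair. It was larger for *tbxtb*, at -0.43 in *stl*-sibling against *btl*-sibling (interval -0.80 to -0.10), and none of the 3 genes reached 2-fold in any pair of normal libraries. Of all genes, 2.11% did in *stl*-sibling against *btl*-sibling, 1.73% in *stl*-sibling against WT and 1.36% in *btl*-sibling against WT. Since *btl*-sibling was the highest normal library for *tbxtb*, *stl* set against it gave a log2 fold change of -0.47 (interval -0.85 to -0.14).

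Direct comparison of the mutants gave log2 fold changes, *btl* over *stl*, of 3.26 for *tbxta* (interval 3.01 to 3.70), 2.53 for *tbxtb* (interval 2.29 to 2.91) and 1.98 for *noto* (interval 1.62 to 2.64). Past 2-fold on the higher side in *btl* against *stl* were 6.02% of all genes. For *tbxtb* this distance lay on the side of *btl*, while for *tbxta* and *noto* it was spread over both mutants.

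When the fold changes of all genes in *stl* and *btl*, each against its siblings, were set beside each other, 2 genes passed 2-fold on the lower side in *stl* and on the higher side in *btl*, *tbxta* and *si:dkey-21p1.3*, the latter named here after its values were seen. It had 5 reads in *stl*, 235 in *btl* and 21 to 37 in the normal libraries. No other gene was at least as far as *tbxta* in both directions. *noto* lay just outside by its value in *stl*, and 2 genes were at least as far as it in both. By contrast, 301 genes passed 2-fold on the higher side in *btl* while lying within 0.1 of 0 on the log2 scale in *stl*, and *tbxtb* was among these. These 2 comparisons have no library in common.

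**Figure D3:**
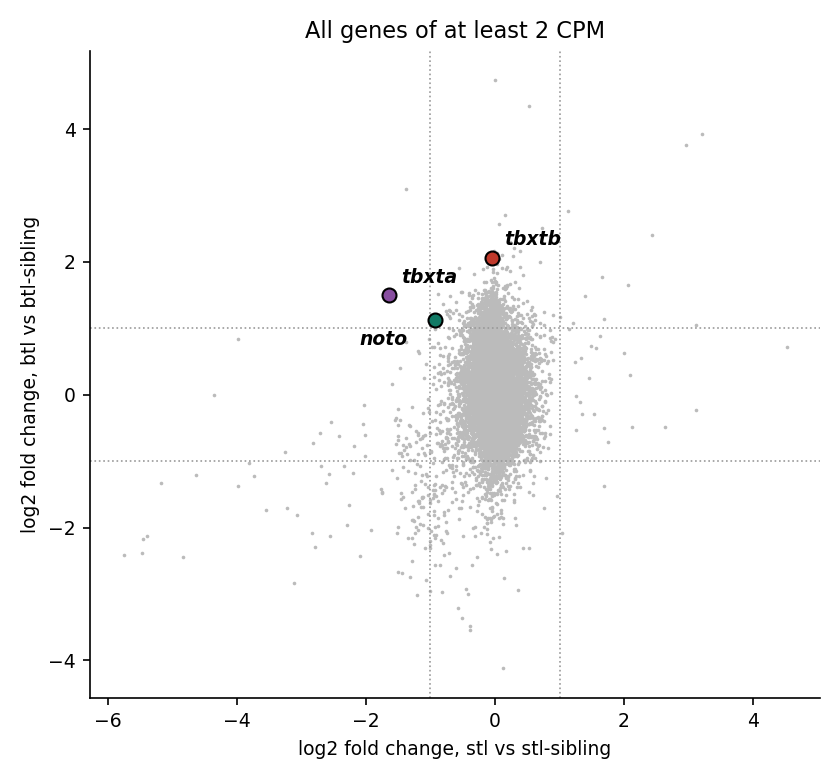
Log2 fold change in *stl* against *stl*-sibling (horizontal axis) and in *btl* against *btl*-sibling (vertical axis) for the 15363 genes above the minimum of 2 CPM (grey), with dotted lines at 2-fold. *tbxta* lies in the upper left, lower in *stl* and higher in *btl*, *noto* lies at its edge, and *tbxtb* lies at the top with -0.05 in *stl*.

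The annotation holds 2 coding sequences of *noto*, of 792 and 690 nucleotides, which differ by 102 nucleotides, or 34 codons. Salmon gave 96.4% of the 455 reads of *noto* to the longer of them. The longer coding sequence held 89.2 reads in WT, 92.0 in *stl*-sibling, 82.6 in *btl*-sibling, 44.0 in *stl* and 131 in *btl*. It followed the order of the whole gene. The shorter held 3.81 reads in WT, 0 in *stl*-sibling, 9.42 in *btl*-sibling, 0 in *stl* and 3.22 in *btl*. Its share of the reads was thus highest in *btl*-sibling, at 10.2% (exact interval 4.57% to 17.8%). At 0 of 44 reads in *stl* the upper end of the interval was 8.04%. These intervals take the estimates as counts of reads. They leave out the error of dividing shared reads between the 2 coding sequences, so they are too narrow. A difference of the shorter form between *stl* and its siblings was not detectable at this depth, as both stood at 0. Read from the longer coding sequence alone and against siblings, *noto* was at -0.94 in *stl* (interval -1.58 to -0.49) and at 1.23 in *btl* (interval 0.88 to 1.70) on the log2 scale.

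For reads that match more than 1 coding sequence Salmon gives estimates that need not be whole. The estimates of *tbxta* and *tbxtb* were whole numbers, within 0.0005 reads, in 4 of the 5 libraries each, and the largest remainder was 0.319 reads, for *tbxta* in *btl*. For *noto* the estimates were whole in 3 of the 5 libraries. A remainder does not measure how many reads were shared, so the part of shared reads in these genes cannot be read from it. Other genes of the T-box family, all of which carry the same kind of DNA-binding domain, are given below.

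To compare the genes with each other, levels per length were used, as TPM summed over the coding sequences. In WT *tbxta* stood highest at 13.8 TPM, followed by *noto* at 8.87 and *tbxtb* at 6.25. In *stl*-sibling the values were 15.4, 9.11 and 6.48 TPM in the same order, and the order held there. In *btl*-sibling *tbxta* stood at 18.2 TPM, and *noto* and *tbxtb* at 9.51 and 9.56, which did not differ beyond counting error. In *stl* *tbxtb* stood at 6.34 TPM, *tbxta* at 4.77 and *noto* at 4.54, and no pair of the 3 differed there beyond counting error. In *btl* the order was *tbxta* at 34.5 TPM, *tbxtb* at 27.1 and *noto* at 14.0, each apart from the next. On this scale 84.2% of the 15363 genes were lower than *tbxta* in *btl*, against 24.8% in *stl* and 59.9% in WT.

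The balance of the Brachyury genes also differed between libraries. Per length, *tbxtb* was at 0.45 of *tbxta* in WT (interval 0.36 to 0.57), at 0.42 in *stl*-sibling (0.34 to 0.52) and at 0.53 in *btl*-sibling (0.43 to 0.64). It was at 1.33 in *stl* (0.99 to 1.79) and at 0.79 in *btl* (0.70 to 0.89). Both mutants were above all 3 normal libraries, with intervals that did not overlap theirs. The ratio of *noto* to *tbxta* was 0.64 in WT, 0.59 in *stl*-sibling, 0.52 in *btl*-sibling, 0.95 in *stl* (0.64 to 1.39) and 0.41 in *btl* (0.33 to 0.49). Here *stl* was the highest and *btl* the lowest, and the interval of *stl* met those of all 3 normal libraries. *noto* was at 1.42 of *tbxtb* in WT (1.07 to 1.88), at 1.41 in *stl*-sibling (1.06 to 1.86), at 0.995 in *btl*-sibling (0.76 to 1.29), at 0.72 in *stl* (0.49 to 1.02) and at 0.51 in *btl* (0.42 to 0.62). Both mutants were the lowest here, and the interval of *stl* met that of *btl*-sibling.

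The differences between the genes were also read as differences of their log2 ratios, for 3 pairs of genes in 2 comparisons, 6 in all, with intervals that are not adjusted for their number. In *stl* against its siblings, *tbxtb* stood 1.66 above *tbxta* (interval 1.12 to 2.20) and *noto* stood 0.98 below *tbxtb*, as a difference of -0.98 (interval -1.65 to -0.31). The difference of *noto* from *tbxta* there was 0.69 (interval 0.01 to 1.35). In *btl* against its siblings, *tbxtb* stood 0.58 above *tbxta* (interval 0.25 to 0.91), and *noto* relative to *tbxta* was at -0.35, with an interval from -0.79 to 0.10 that holds 0. Relative to *tbxtb*, *noto* was at -0.93 in *btl* (interval -1.40 to -0.45). The pair of Brachyury genes added together, a sum chosen after the values were seen, had 370 reads in WT, 387 in *stl*-sibling, 479 in *btl*-sibling, 191 in *stl* and 1043 in *btl*. Together they were 1.97-fold lower in *stl* (log2 ratio -0.98, interval -1.24 to -0.73) and 3.37-fold higher in *btl* (log2 ratio 1.75, interval 1.60 to 1.91) than in the siblings. The share of *tbxtb* in these reads was 30.5% to 35.5% in the normal libraries, 58.1% in *stl* (50.8% to 65.2%) and 45.2% in *btl* (42.1% to 48.2%).

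Other genes of the axial midline, meaning factors and signals of the notochord, floor plate and organizer, did not show this pattern as a list. Of 29 genes listed, 14 were above the minimum, of which in each mutant, against its siblings, 1 passed 2-fold on the lower side and 0 on the higher. On the lower side were 0.996% of all genes in *stl* and 3.23% in *btl*. The median log2 fold change of the 14 genes was -0.26 in *stl* and also -0.26 in *btl*, where the median of all genes was 0.00 and -0.01. With TPM 4 genes were on the lower side in *btl* (median -0.83) and 1 in *stl* (median -0.23). Over all genes, TPM put 2031 on the lower side in *btl* and 124 in *stl*, against 496 and 153 under the main scaling. With the median of all genes under TPM taken off, these medians were -0.28 in *btl* and -0.24 in *stl*. The lowest in *stl* was *lft1*, an antagonist of Nodal signals, with 14 reads against 52 in the siblings (log2 fold change -1.51). The lowest in *btl* was *chrd*, which encodes the BMP antagonist Chordin, with 33 reads against 294 (-2.38), and in *stl* it stood at -0.72. In the other direction *lhx1a* was at 0.67 in *stl*, with 56 reads against 34, and at 0.17 in *btl*. Of the 14 genes, 12 were below 0 in *stl* and 10 in *btl*. *foxa2*, a forkhead factor of the midline, was at -0.39 in *stl* and at -0.11 in *btl*. For *shha*, the Sonic hedgehog ligand made by notochord and floor plate, the values were -0.60 and -0.35. *tdgf1*, the Nodal co-receptor, stood at -0.80 in *stl* and 0.58 in *btl*, opposite in sign like *noto* and *tbxta*, though short of 2-fold and with 21 to 63 reads in a library.

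Genes of the tail bud progenitors had a median of -0.05 in *stl* and 0.18 in *btl*, with 13 of 26 listed genes above the minimum. In *stl* 1 of them was at least 2-fold lower, against 0.996% of all genes. This was *fgf17*, an FGF ligand, with 28 reads against 70 (-1.13). In *btl* 1 was at least 2-fold higher, against 4.45% of all genes. This was *ved*, a homeobox repressor of dorsal fates, with 433 reads against 328 (1.02), a call that was lost by library size alone and with TPM. *cdx4*, a regulator of posterior *hox* genes, followed with 0.89 and the ligand *wnt3a* with 0.75. In the other direction *wnt11*, also a Wnt ligand, was at -0.67 with 113 reads against 282, and *fgf17* at -0.65. Of the 13 genes 10 were above 0 in *btl* and 3 below under the main scaling, where the median of all genes was -0.01. The median of this list in *btl* was -0.02 by library size alone and -0.38 with TPM, and with the median of all genes under each scaling taken off it was 0.20 and 0.17.

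The paraxial mesoderm, which forms the somites, was represented by 8 of 16 listed genes. None was past 2-fold in *stl*, where the median was 0.19. In *btl* 2 passed 2-fold on the lower side and 1 on the higher, against 3.23% and 4.45% of all genes, with a median of -0.73. The lower side held 4 genes by library size alone (median -0.94) and 5 with TPM (median -1.27). Over all genes it held 848 by library size alone and 2031 with TPM, against 496 under the main scaling. With the median of all genes under each scaling taken off, both medians were -0.72. *msgn1*, the gene with the *btl* allele, had 2163 reads in *btl* and 159 in its siblings (4.34), while *tbx6*, a T-box factor of the presomitic mesoderm, had 47 against 235 (-1.61) and *tcf15*, a factor of somite epithelium, 15 against 66 (-1.29). Counted by the 22 other T-box genes listed, of which 11 were above the minimum, 0 were past 2-fold in *stl*. In *btl* 2 passed 2-fold on the lower side, *tbx6* and *tbx15*, and 0 on the higher, against 3.23% and 4.45% of all genes. With TPM 1 T-box gene did on the lower side, where 2031 of all genes did. The highest of these T-box genes in *btl* was *tbx16* (*spadetail* in zebrafish), a factor of mesodermal progenitors, with 394 reads against 381 and a log2 fold change of 0.67.

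Differentiated notochord was represented by 22 of 24 listed genes of the sheath and the vacuolated cells, all 22 above the minimum. The list also holds laminin genes (*lama1*, *lamb1a*, *lamc1*) and secretory transport genes (*copa*, *copb1*, *copb2*), which are not particular to the notochord. Like the other lists here, it was written with earlier results of these data known. Its counts beside the share of all genes are therefore a description and no test of enrichment. In *stl* 13 of the 22 passed 2-fold on the lower side and 0 on the higher, against 0.996% and 0.215% of all genes. The median of the list was -2.03. The laminin and transport genes lay between -0.06 and 0.16 there. In *btl* 15 passed 2-fold on the lower side, *lamb1a* (-1.09) and *lamc1* (-1.04) among them, and 0 on the higher. Of all genes 3.23% and 4.45% did, and the median of the list was -1.26. Against WT the medians of the list were closer to each other, at -1.14 in *stl* and -1.03 in *btl*, and that of *btl* against *stl* was -0.09. In *stl*, therefore, *noto* and *tbxta* were lower beside a lower sheath list, whereas in *btl* all 3 factors were higher beside a lower sheath list. *cmn*, which encodes the sheath protein Calymmin, had 49 reads in *stl* and 3042 in its siblings, and 343 in *btl* and 2856 in its siblings. *loxl5b*, a lysyl oxidase that crosslinks matrix proteins, had 7 reads in *stl* against 204 and 57 in *btl* against 239. *slc38a8b*, an amino acid transporter gene, was the one gene of the 22 with a fold change above 0 in *btl*, with 136 reads against 115 (0.84) and 3 in *stl* against 139. Collagen genes make up 8 of the list and are similar to each other in sequence, so reads could have been divided among them.

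**Figure D4:**
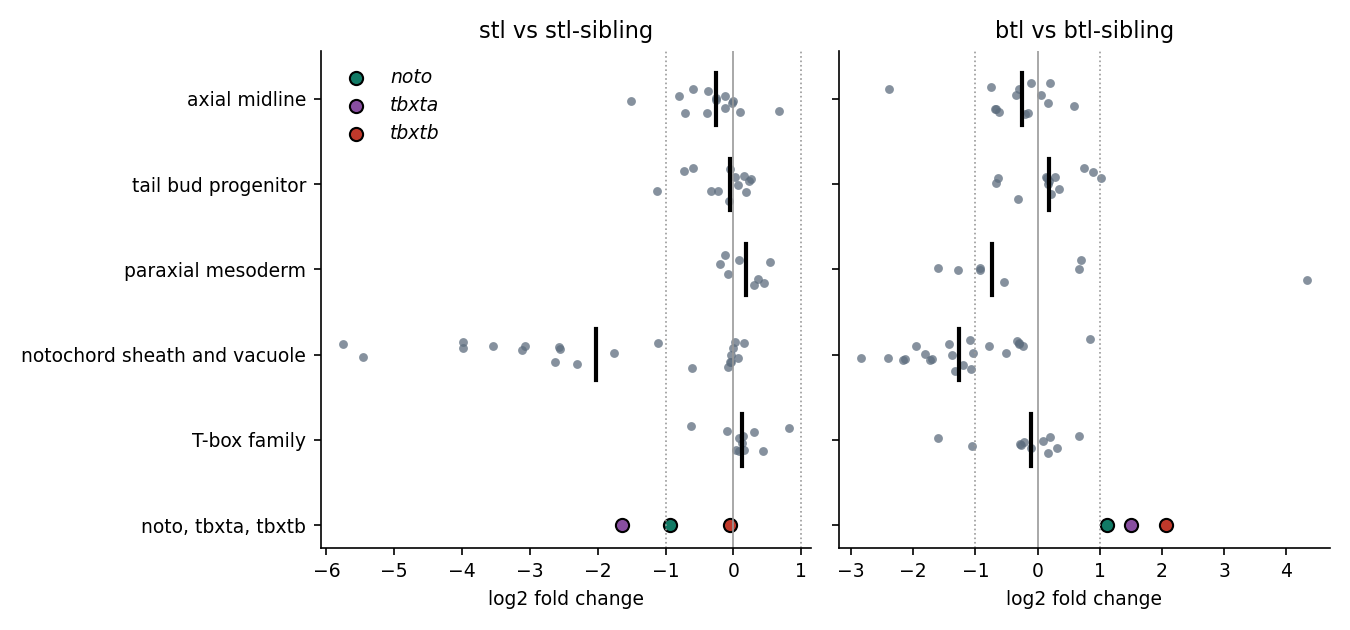
Log2 fold change (horizontal axes) of the genes of 5 lists (grey points, 1 per gene, black bars at the list median) and of *noto*, *tbxta* and *tbxtb* (coloured, bottom row), in *stl* (left) and *btl* (right), each against its siblings, with dotted lines at 2-fold. The sheath list has its median at -2.03 in *stl* and -1.26 in *btl*, and the coloured points lie to the right of all list medians in *btl*.

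Markers of other cell types lay outside the range of the normal libraries in some lists. The summed level of the somite muscle list was 777 to 1337 CPM in the normal libraries, 640 CPM in *stl* and 356 CPM in *btl*. Against siblings 9 of its 13 genes above the minimum were past 2-fold lower in each mutant, against 0.996% of all genes in *stl* and 3.23% in *btl*. Their medians were -1.17 in *stl* and -1.94 in *btl*, and against WT -0.29 and -1.50. The summed level of the CNS list was 375 to 434 CPM in the normal libraries, 470 CPM in *stl* and 335 CPM in *btl*, and that of the epidermis list 10655 to 12047, 11154 and 6453 CPM. The keratin gene *krt5* made up most of the epidermis sum, with 8766 CPM in WT, 7241 CPM in *btl*-sibling and 4234 CPM in *btl*. Its log2 fold change in *btl* against its siblings was -0.77, short of 2-fold. The 7 epidermis genes ran from -2.03 to 0.16 on the log2 scale in *btl* against its siblings. Past 2-fold on the lower side were 2 of them, against 3.23% of all genes. Blood markers summed to 209 to 325 CPM in the normal libraries, 333 in *stl* and 289 in *btl*, and hatching gland markers to 333 to 418, 332 and 461 CPM. The hatching gland sum holds only 3 of 6 listed genes, *cd63*, *klf17* and *xbp1*. In *stl* the epidermis list was within the normal range and the hatching gland list at its lower edge, and in *btl* the blood list was within it. None of these lists had a gene at 0 reads in any library. Fold changes in *btl* differed with coding sequence length as well, with a median of 0.25 in the length bin of *noto* and of 0.02 in the bin shared by *tbxta* and *tbxtb*. The part of cell composition in the levels of the 3 factors was not tested.

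The genes most like each factor were found by the Euclidean distance of log2(CPM + 0.5), centred on the mean of the gene over the 5 libraries. With 5 points for each gene this is a description, and genes of few reads can come close by counting error. *tbxta* had *noto* in place 4 of its neighbours among 15362 genes, at a distance of 0.93. The reverse did not hold, with *tbxta* in place 1479 among the neighbours of *noto*. *tbxtb* was in place 82 for *tbxta* and 4405 for *noto*.

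The 5 genes nearest to *noto* were *LOC108249677*, *LOC108241282*, *spata1*, *LOC108250278* and *LOC108229941*, at distances from 0.16 to 0.34. All had fewer reads than *noto* in every library, and the nearest of them had 13 reads in *stl*, 45 in *btl* and 27 to 30 in the normal libraries. Beside *noto* and *spata1*, *tbxta* had *LOC108232862*, *szl* and *frrs1b* as its nearest genes, at distances of 0.72 to 0.75. *szl* encodes Sizzled, a feedback inhibitor of BMP signalling, and had 15, 17 and 23 reads in WT, *stl*-sibling and *btl*-sibling, 7 in *stl* and 45 in *btl*. The distances show that no gene came as close to *tbxta* as those of *noto* and *tbxtb* came to them.

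The gene nearest to *tbxtb*, at a distance of 0.20, was *her7*, a transcriptional repressor of the segmentation clock that acts in the presomitic mesoderm. It was read 50 times in WT, 41 times in *stl*-sibling, 60 times in *btl*-sibling, 41 times in *stl* and 185 times in *btl*, which gave 0.03 in *stl* and 2.14 in *btl* on the log2 scale. *fstl5*, *hoxc13a* and *LOC108244726* were among the next 4, at distances from 0.48 to 0.62. *hoxc13a*, a *hox* gene of the most posterior paralogue group, had 14 or 15 reads in each normal library, 14 in *stl* and 50 in *btl*. For *her7* and *hoxc13a*, as for *tbxtb*, the *btl* library alone was apart, while *LOC108244726* also had more reads in *btl*-sibling, 99 against 46 in WT.

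**Figure D5:**
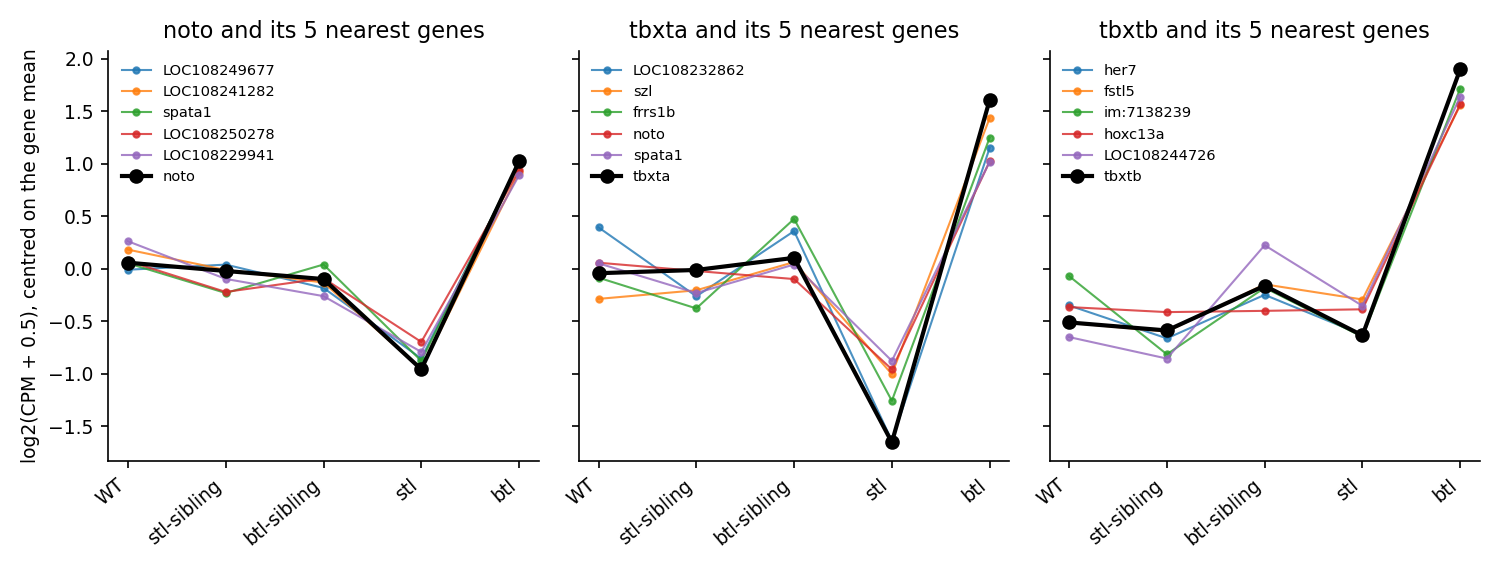
Log2(CPM + 0.5) centred on the mean of each gene (vertical axis) in the 5 libraries (horizontal axes, lines join the libraries of a gene) for each factor (black) and its 5 nearest genes (coloured). The neighbours of *noto* and *tbxtb* run close to them, while those of *tbxta* stay below it in *btl*.

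Genes beside the 3 factors on the linkage groups, looked at after the values of the factors were seen, were also read. At *noto*, *cdc25b* on one side was at 0.08 in *stl* and at -0.03 in *btl* on the log2 scale, and *emx1* on the other side had 0 to 7 reads in a library. At *tbxta*, *nudc* was at -0.09 and 0.09. At *tbxtb*, *pde10a* stood at 0.56 and 0.06, and *prr18* was below the minimum with 11 to 25 reads. None of the neighbours above the minimum was past 2-fold in either mutant, where 1.21% of all genes were in *stl* and 7.67% in *btl*. With so few neighbours this does not set them apart from all genes. The nearest to 2-fold was *sfxn5a*, the gene after *emx1*, with 0.96 in *btl*.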

How the data were processed

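RNA-seq was read from 5 libraries of pooled embryos. The authors trimmed the reads and ran Salmon (1.5.0 in the submitters' processing notes) on the annotated coding sequences of assembly ASM164957v2. The deposited values are estimated counts, not scaled, and TPM for each coding sequence, which are relative to length and library. The deposited RPKM and NOISeq comparisons (ratios, differences and probabilities of the authors) were not used. Of 37181 coding sequences, 37146 were assigned to 22090 genes by protein accession in the RefSeq gene table of that assembly, which also gave the coordinates. Estimated counts were summed over each gene and rounded for scaling and intervals. TMM factors came from edgeR 4.0.16 (R 4.3.3), intervals from scipy 1.17.1, and numpy 2.4.6, pandas 2.3.3 and matplotlib 3.10.9 were used under Python 3.11.15. The fold change calls, the search for nearest genes and the interval of a ratio were tested on simulated reads or values. The scaling factors, the summing over coding sequences and the other steps were not. A gene was kept where its mean reached 2 CPM, and 2-fold was the threshold. Lists were written by zebrafish symbol, and a symbol not found was not replaced. Genes named from a list are among its 4 with the largest change in one of the mutants, except *foxa2*, *shha* and the laminin and secretory transport genes. Of the 5 nearest genes of each factor 1 of *tbxtb* is left unnamed. The 3 genes and the lists were chosen with earlier results of these data known. Alternatives were library size alone, DESeq2 1.42.0 size factors, TPM, other pseudocounts, references, filters and thresholds, single coding sequences and removal of the trend over 20 bins of length. Sequences of the genes were not used here.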

Additional observations from a re-analysis of the deposited data

Results flagged for a closer look

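Opposite directions in the mutants, each against its siblings, with intervals that leave out 0, were found for 2 of the 3 genes. The share of all genes that meet this was not counted, so how unusual 2 of the 3 is cannot be read here. By a different rule, 2-fold in both mutants, 2 of the 15363 genes were lower in *stl* and higher in *btl*. *tbxta* was among them, and *noto* did not meet that rule. On the log2 scale *noto* was at -0.94 in *stl* and at 1.12 in *btl*, and *tbxta* was at -1.64 and at 1.5. With 1 library per mutant this difference was not tested.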

How the results depend on the processing

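Of 66 values of the 3 genes under alternative settings, 59 stayed within the interval of the reads, 7 moved out of it and 0 changed sign where the gene was past 2-fold. Some of the 59 could not move. The use of a single coding sequence leaves *tbxta* and *tbxtb*, with 1 each, as they were. The same holds for *noto* in *stl*, where the shorter form had 0 reads in both libraries. No alternative took *tbxta* in *stl* out of -1.76 to -1.46 or *noto* in *stl* out of -1.03 to -0.74. In *btl*, TPM gave log2 fold changes of 0.53 for *noto*, 0.91 for *tbxta* and 1.46 for *tbxtb*, but TPM also moved the median of all genes to -0.55, and relative to it they were 1.08, 1.46 and 2.01. Library size alone moved that median to -0.22 and *tbxta* to 1.29 (1.51 relative to it). With WT and *stl*-sibling as the reference, *tbxtb* in *btl* was at 2.41 and 2.49, and with *btl*-sibling *tbxtb* in *stl* was at -0.47. The number of genes past 2-fold in *stl*, 186, was 123 with 2 CPM added, 330 without a minimum, 91 with a minimum of 10 CPM and 47 at 4-fold. In *btl*, 1179 genes became 2106 with TPM, 725 with a minimum of 10 CPM and 90 at 4-fold. A minimum of 10 CPM left 0 of the 5 nearest genes of *noto* and *tbxta* and 1 of those of *tbxtb* in place, since most have fewer reads, and with 2 CPM added 3 of 5 were kept for *noto* and for *tbxta*. No paired analysis was possible because each group has 1 library. Depth limits the shorter coding sequence of *noto*, which had at most 9.42 reads in a library.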
